A study of Mus musculus with 10 samples.

Results

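The 8 genes described here, Clec4f, Vsig4, Timd4, Cd5l, Marco, Folr2, Adgre1 and Csf1r, are identity genes of the resident macrophages of the liver. They were found by symbol among the 59408 gene models of the normalised expression table, where each matched 1 model. Bulk RNA sequencing was available for the livers of 10 wild type C57BL/6 mice, collected at day 35. The 4 control mice were untreated. The 3 PBC mice modelled primary biliary cholangitis, an autoimmune bile duct disease. They were immunised into the peritoneum at days 0, 14 and 28 with 2-octynoic acid coupled to BSA (100 µg), in complete and later incomplete Freund's adjuvant, and the first pair of injections came with 2 µg of intravenous α-galactosylceramide. The 3 PSC mice modelled primary sclerosing cholangitis without autoimmunity, through food with 0.089% 3,5-diethoxycarbonyl-1,4-dihydrocollidine (DDC) for 2 weeks, regular food for 1 week and DDC food for 1 more week. Sex and age are not stated in the labels. No control mouse received adjuvant or glycolipid, so antigen, adjuvant and glycolipid cannot be told apart in the PBC livers. Both models were compared with the same 4 control livers.

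Kupffer cells are the macrophages that line the liver sinusoids. They take up particles, microbes and dying cells from portal blood, and they are kept in place by signals from stellate cells, hepatocytes and sinusoidal endothelium. When resident Kupffer cells are lost, monocytes from the blood can take their place and acquire most of the same genes, with Timd4 among those that appear late. Clec4f is the member most restricted to Kupffer cells in the mouse. Vsig4, Timd4, Cd5l, Marco and Folr2 are also found in macrophages of some other tissues, and Adgre1 and Csf1r in macrophages and monocytes at large.

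Libraries held 38.3 to 95.4 M (mega) reads, as recovered from the deposited values. All 8 genes passed the filter of at least 10 normalised reads in at least 3 libraries, and each was above that level in 10 of 10 libraries. The fewest reads on a member were 197, for Timd4. In every library more models held 2 recovered reads than 1 (2271 against 547 in control 1). Recovered reads may thus not be independent fragments, and the part of counting error in the spread between mice was not tested. Within PBC, mouse 8 was the highest for 6 of the 8 genes and mouse 7 the lowest for 8 of 8. Within PSC, mouse 11 was the highest for 8 of 8, and among the controls, mouse 2 was the lowest and mouse 4 the highest for 6 of 8 each. Control 2 had 13.7% mitochondrial reads, against 5.13% to 8.67% in the other libraries, and the part of this in its levels was not tested. PBC mouse 8 lay more than 2 times above the mean of the other PBC livers for 3 of the 8 members, as it did for 14.2% of all tested models.

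Upstream sequences are shown for 3 members: Marco, with the largest increase, Timd4, the member that was lower in PSC than in control livers on average, and Clec4f, the member most restricted to Kupffer cells. Each is the 250 bases before the annotated transcript start, 5′ to 3′ on the strand of the gene, from RefSeq on GRCm38.p6. Capitals mark matches on either strand to 7 short motifs of macrophage regulators: AGGAAGT for PU.1, TGCTGA for MAF, AGGTCA for nuclear receptors, CAGGTG for a ZEB E-box, CAGACA for SMAD, TGAGTCA for AP-1 and TGGGAA for RBPJ.
Marco, chr1:120505025-120505274, minus strand: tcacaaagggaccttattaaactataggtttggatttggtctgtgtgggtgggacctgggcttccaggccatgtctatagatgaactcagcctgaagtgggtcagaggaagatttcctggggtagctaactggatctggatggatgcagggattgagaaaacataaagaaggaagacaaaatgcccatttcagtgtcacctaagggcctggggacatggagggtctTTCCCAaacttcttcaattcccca
Timd4, chr11:46810549-46810798, plus strand: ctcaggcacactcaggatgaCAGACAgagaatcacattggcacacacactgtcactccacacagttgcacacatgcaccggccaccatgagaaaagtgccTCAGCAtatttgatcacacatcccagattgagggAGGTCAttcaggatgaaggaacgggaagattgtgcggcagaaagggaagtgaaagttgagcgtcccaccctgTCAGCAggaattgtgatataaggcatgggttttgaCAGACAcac
Clec4f, chr6:83656117-83656366, minus strand: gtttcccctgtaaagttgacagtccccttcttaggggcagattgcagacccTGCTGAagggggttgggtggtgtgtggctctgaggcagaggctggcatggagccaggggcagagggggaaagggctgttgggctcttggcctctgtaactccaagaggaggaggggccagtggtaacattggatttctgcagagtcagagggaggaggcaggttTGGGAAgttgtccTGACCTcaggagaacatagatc
The Timd4 window held 2 MAF matches, 2 SMAD matches and 1 nuclear receptor match. The Clec4f window held 1 MAF, 1 nuclear receptor and 1 RBPJ match, and the Marco window held 1 RBPJ match and none to the other motifs. No matches overlapped in these windows. These letters are common: a MAF match stood in 16.1% of 32851 windows of this length, a nuclear receptor match in 14.0%, a SMAD match in 17.1% and an RBPJ match in 21.6%. A match describes the letters only.

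Levels of different genes were compared per kilobase of annotated exon (GENCODE M21), as normalised reads per kilobase. In control livers the order was Clec4f at 6663 ± 1529 (SD, n = 4), Cd5l at 5059.7 ± 1575 and Vsig4 at 4597 ± 648, then Folr2 at 1731 ± 359.8. Marco at 487 ± 292, Csf1r at 443 ± 203, Timd4 at 273 ± 91.1 and Adgre1 at 238 ± 98.0 came last. Clec4f lay above Cd5l by slightly more than the larger of their SDs. Cd5l and Vsig4 differed by less than the larger of theirs, and so did neighbours among the last 4. In PBC livers Marco, at 11814 ± 7362 per kilobase (SD, n = 3), had joined Cd5l at 14269 ± 5384, Clec4f at 12233 ± 1361 and Vsig4 at 9958 ± 1307, while Timd4 at 711 ± 415 and Adgre1 at 479 ± 382 stayed last. In PSC livers the order of the controls was kept for the first 6 genes, with Marco at 1415 ± 821 (SD, n = 3), and Timd4, at 169 ± 23.0, had changed places with Adgre1, at 248 ± 65.3.

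**Figure D1:**
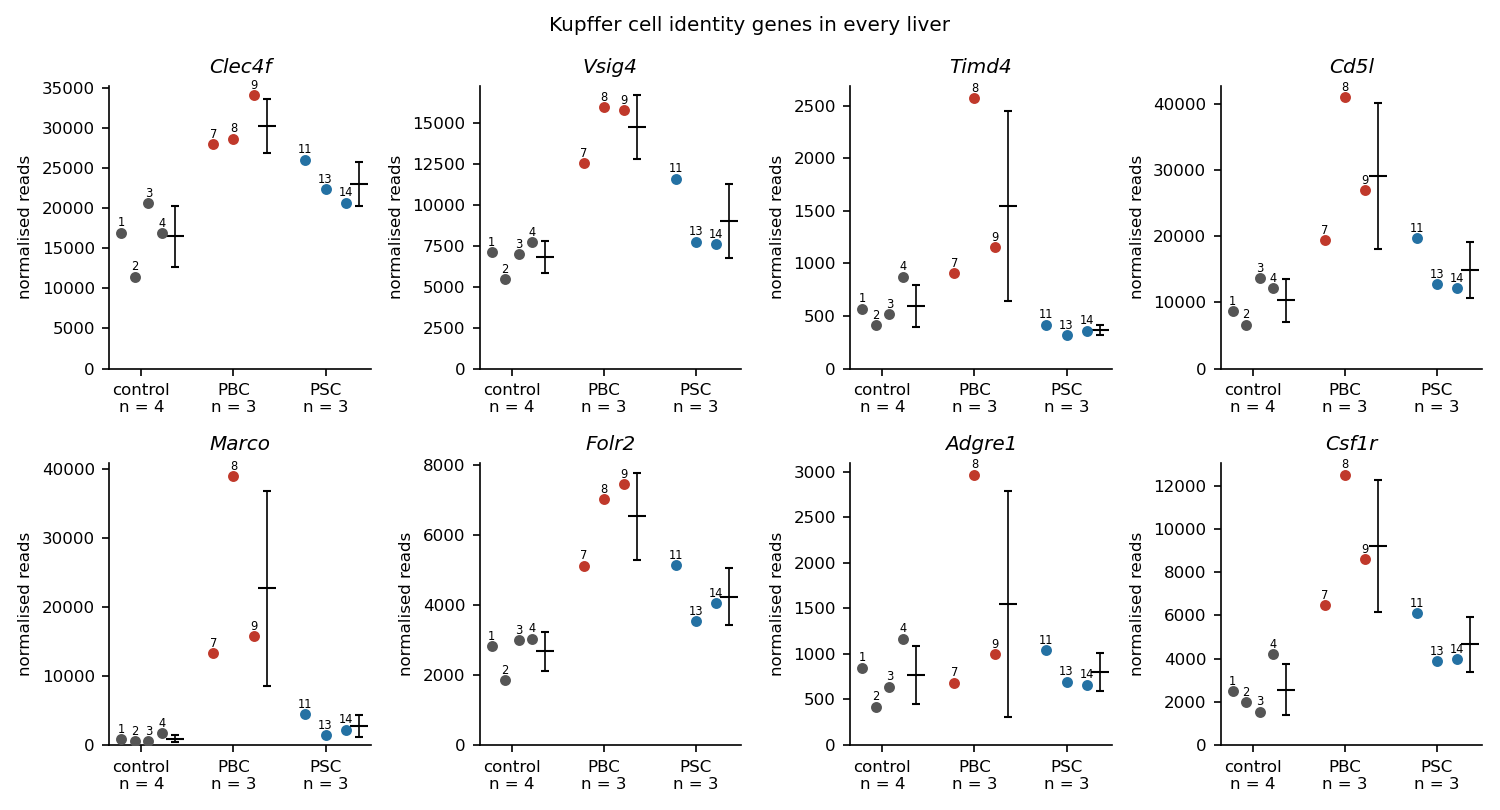
Normalised reads of the 8 Kupffer cell identity genes in each liver, with mouse numbers above the points and mean ± SD at the right of each group (n = 4, 3 and 3). Each axis starts at 0. For 7 genes, all but Adgre1, the PBC livers lie above every control, while Timd4 is lowest in the PSC livers on average.

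In PBC livers 7 of the 8 identity genes rose against control livers and none fell. Marco rose most, and Adgre1, which encodes the general macrophage surface protein F4/80, was the 1 gene not called. Limma with Benjamini-Hochberg adjustment over 18390 models, at a threshold of 0.05, called 7.6% of all models higher and 2.34% lower in this comparison. The PBC livers lay wholly above the control livers for 7 members and wholly below for 0, against 12.7% and 6.89% of all models. The median log2 fold change of the 8 members was 1.29, against 0.01 for all models tested. The intervals in the plot of log2 fold changes show the range from Adgre1 to Marco. In bulk liver, more Kupffer cells and more RNA of these genes per cell cannot be told apart.

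Marco encodes a class A scavenger receptor with a collagen-like stalk that binds bacteria and modified lipoproteins (GSMG0002006, mm10 chromosome 1, 120474538 to 120505024, minus strand). It stood at 874, 609.7, 519 and 1751 normalised reads in controls 1 to 4, and at 13359, 39046 and 15823 in PBC 7, 8 and 9. The lowest PBC liver was thus several-fold above the highest control. The log2 fold change was 4.60 (SE 0.47, 95% interval 3.58 to 5.61, limma adjusted p = 0.0001), a 24.2-fold rise, and remained called in all 20 alternatives, between 4.12 and 4.95.

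Cd5l encodes a secreted scavenger-domain protein that keeps macrophages alive and binds IgM in plasma (GSMG0024491, chromosome 3, 87357879 to 87371074, plus strand). Its values were 8716, 6639, 13682 and 12169 in the controls and 19339.6, 40939 and 26877 in PBC 7, 8 and 9. PBC mouse 8 was again the highest, and the groups did not overlap. Cd5l rose by 1.48 (SE 0.30, limma adjusted p = 0.00795).

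Timd4 encodes a phosphatidylserine receptor with which resident macrophages bind dying cells (GSMG0005103, chromosome 11, 46810798 to 46844333, plus strand). It was at 569.95, 415, 516 and 875 in the controls and at 905, 2576 and 1153 in PBC 7, 8 and 9, so that the lowest PBC liver and the highest control nearly met. Timd4 rose by 1.28 (SE 0.34, limma adjusted p = 0.0305). This call was lost without control 1, 2 or 3 or PBC 8 or 9 (adjusted p from 0.0578 to 0.0669), with equal totals (0.0968) and with the compared groups alone (0.0779).

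Vsig4 encodes a complement receptor that captures C3b-coated bacteria from blood (GSMG0042698, chromosome X, 96247203 to 96293440, minus strand). It stood at 7106, 5466, 6989 and 7729 in the controls and at 12541, 15989.9 and 15802 in PBC 7, 8 and 9. Relative to its mean, its spread was the smallest of the members in the controls and next to smallest, after Clec4f, in PBC livers, and it rose by 1.12 (SE 0.20, limma adjusted p = 0.0042). C3, the complement protein whose fragments Vsig4 binds, rose by 1.82 (SE 0.29, limma adjusted p = 0.00181) in the same livers.

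Clec4f encodes a lectin of Kupffer cells that binds galactose-bearing glycans and is known to bind α-galactosylceramide, the glycolipid given to the PBC mice (GSMG0033254, chromosome 6, 83644542 to 83656117, minus strand). Values were 16932, 11445, 20620.0 and 16859 in the controls and 27934, 28661 and 34089 in PBC 7, 8 and 9. The groups did not overlap, and PBC mouse 8 did not stand apart here. The rise was the smallest of those called, at 0.90 (SE 0.21, limma adjusted p = 0.0182), and the call was lost without PBC 9 (adjusted p = 0.0933) and with the compared groups alone (0.0575).

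Folr2, for folate receptor beta, was at 2819, 1855, 2991 and 3042 in the controls and at 5123, 7025 and 7453 in PBC 7, 8 and 9 (GSMG0036345, chromosome 7, 101839988 to 101857200, minus strand). It rose by 1.30 (SE 0.22, limma adjusted p = 0.00319), with no overlap. Csf1r, for the receptor of the survival factors CSF1 and IL-34, was at 2494, 1982, 1543 and 4222 in the controls and at 6490.5, 12519.8 and 8597 in PBC 7, 8 and 9 (GSMG0018463). It rose by 1.90 (SE 0.32, limma adjusted p = 0.00275), although its model overlaps that of Hmgxb3 by 870 bases and the authors' use of strand in counting is not given in the sources used here.

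Adgre1 differed from the other members in how far PBC mouse 8 stood from the rest (GSMG0016842, chromosome 17, 57358686 to 57483529, plus strand). It was at 851, 422, 641 and 1168 in the controls and at 684, 2969.8 and 1001 in PBC 7, 8 and 9, so that PBC 7 and 9 lay within the control range. The log2 fold change was 0.81 (SE 0.44, 95% interval -0.14 to 1.76, limma adjusted p = 0.26), and it became 0.20 without PBC 8 (adjusted p = 0.739). The interval includes changes as large as those of Clec4f or Vsig4.

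**Figure D2:**
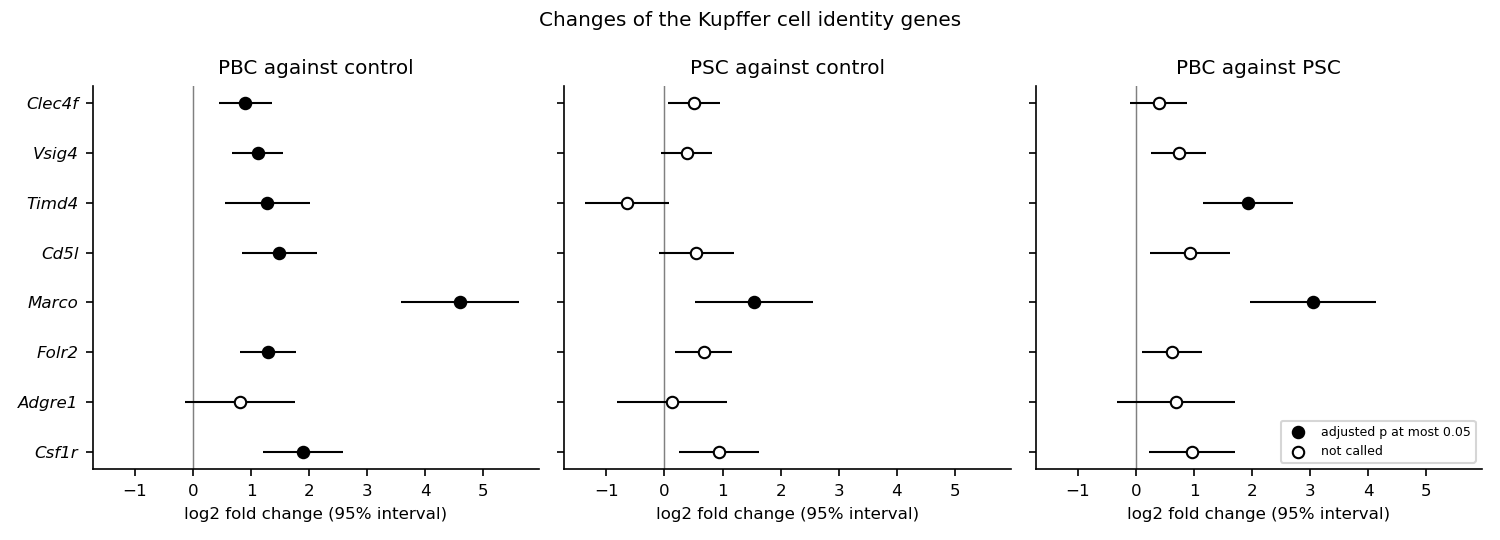
Log2 fold changes of the 8 genes in the 3 comparisons, with 95% intervals from limma. Filled points have an adjusted p of at most 0.05. Marco is filled in all 3 panels, from 1.55 in PSC against control to 4.60 in PBC against control, and Timd4 is the gene whose estimate in PSC against control is below 0, at -0.65.

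In PSC livers 1 of the 8 identity genes, Marco, rose against control livers and none fell, where limma called 8.25% of all models higher and 6.48% lower. The median log2 fold change of the members was 0.53, against 0.06 for all models tested. Estimates were above 0 for 7 members and below 0 for Timd4. The PSC livers lay wholly above the controls for 2 members, Clec4f and Folr2, against 15.9% of all models.

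Marco was at 4491, 1448 and 2232 in PSC 11, 13 and 14, and control 4, at 1751, lay among them. It rose by 1.55 (SE 0.47, 95% interval 0.53 to 2.56, limma adjusted p = 0.0428). That call was lost without control 1, 2 or 3 or PSC 11 or 14 (adjusted p from 0.0797 to 0.185), with no filter (0.0519), with TMM scaling (0.0509), with equal totals (0.0835) and with edgeR (0.0537).

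Timd4 was at 418, 319 and 362 in PSC 11, 13 and 14, near or below the lowest control, control 2 at 415. Its log2 fold change was -0.65 (SE 0.34, 95% interval -1.37 to 0.07, limma adjusted p = 0.215), which did not pass. With array quality weights it was -0.71 and passed (adjusted p = 0.0137).

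Clec4f stood at 26040.1, 22338 and 20695 in PSC 11, 13 and 14, all above the highest control, PSC 14 by a small margin, with a log2 fold change of 0.51 (95% interval 0.05 to 0.96, limma adjusted p = 0.124). Folr2 stood at 5137, 3532 and 4049, with 0.67 (95% interval 0.19 to 1.16, limma adjusted p = 0.0603), and passed with DESeq2 (0.0371). Csf1r was at 6111, 3889.9 and 3969, with 0.93 (95% interval 0.24 to 1.63, limma adjusted p = 0.0669), and passed without control 4 (0.0151) or PBC 8 (0.0473). These 3 genes and Cd5l also passed with array quality weights, with adjusted p from 0.00788 to 0.0266. None of the 3 intervals includes 0, so the missed threshold does not show that these genes were at control level.

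Vsig4 was at 11613, 7768 and 7630.2 in PSC 11, 13 and 14 (log2 fold change 0.38, limma adjusted p = 0.227). Cd5l was at 19703, 12740.4 and 12172.5 (0.55, adjusted p = 0.241), and Adgre1 at 1046, 697 and 664 (0.12, adjusted p = 0.877). PSC 13 and 14 lay within or just above the control range for all 3 genes, and PSC 11 lay above it for Vsig4 and Cd5l and within it for Adgre1.

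Directly between the models, 2 of the 8 genes, Marco and Timd4, were higher in PBC than in PSC livers and none was lower, where limma called 1.11% of all models higher and 1.13% lower. Marco was higher by 3.05 (SE 0.50, limma adjusted p = 0.0068), an 8.28-fold difference, and remained called in all 20 alternatives. Timd4 was higher by 1.93 (SE 0.36, limma adjusted p = 0.014), a 3.81-fold difference, and this call was lost without PSC 13 (0.0736) or PSC 14 (0.0686). The PBC livers lay wholly above the PSC livers for 5 members, Clec4f, Vsig4, Timd4, Marco and Csf1r, against 14.6% of all models.

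Estimates for the other 6 members were all above 0, from 0.39 for Clec4f (95% interval -0.09 to 0.88, limma adjusted p = 0.367) to 0.96 for Csf1r (0.22 to 1.70, adjusted p = 0.162). Vsig4, at 0.73 (SE 0.22, limma adjusted p = 0.106), passed with array quality weights (0.0326). The median of the 8 members was 0.83, against 0.02 for all models tested.

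Each member was then taken as a ratio to Adgre1 in the same library, which asks whether it changed by more or less than this general macrophage gene. In the fits of these ratios over all 10 libraries, limma drew each SE almost wholly from a trend shared by all models. Their adjusted p therefore does not measure the spread of the member's own ratios between mice. Per Adgre1, Marco rose by 3.78 (SE 0.66, limma adjusted p = 5.04e-06) in PBC against control livers, where 0.533% of models were called higher and 1.56% lower on this scale, and the other 6 members were not called. The Marco to Adgre1 ratio was 0.809 to 1.499 in the controls, 13.1 to 19.5 in PBC and 2.08 to 4.29 in PSC livers, with no overlap between any of the groups. In PSC against control livers no member was called per Adgre1, where 1.57% of models were called higher and 0.93% lower, and Marco, at 1.42, passed without PBC 8 (limma adjusted p = 0.0402). With Csf1r as the denominator the log2 difference of Marco was 2.70 in PBC against control livers, still called, and 0.61 in PSC against control livers (limma adjusted p = 0.275). Between the models Marco was higher by 2.36 per Adgre1 (SE 0.71, limma adjusted p = 0.0557), where 0.174% of models were called higher and 1.21% lower. It passed without PBC 7 (0.0463) or PBC 8 (0.00163).

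PBC mouse 8, the highest PBC liver for Adgre1, was the lowest in the ratios of all 7 other members. The Timd4 to Adgre1 ratio was 0.67, 0.982, 0.805 and 0.749 in the controls, 1.32, 0.867 and 1.152 in PBC 7, 8 and 9, and 0.40, 0.457 and 0.545 in PSC 11, 13 and 14. Every PSC liver lay below every control and every PBC liver. On the log2 scale the difference between PSC and control was -0.77 (SE 0.62, limma adjusted p = 0.79), which did not pass. That SE is the shared one, not the spread of the Timd4 ratios. An exact two-sided permutation test of the same difference over the 7 livers gave p = 0.0571, the smallest that 3 against 4 livers allow, and 0.24 after adjustment over the 21 ratio comparisons. Marco in PBC against control livers gave the same exact p, and so did Marco, Folr2 and Csf1r in PSC against control livers. With Csf1r as the denominator the Timd4 difference between PSC and control was -1.58 and passed (limma adjusted p = 0.00733).

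The Csf1r to Adgre1 ratio was 2.93, 4.69, 2.41 and 3.62 in the controls and 5.84, 5.58 and 5.98 in PSC livers, with no overlap (log2 difference 0.81, limma adjusted p = 0.812). In PBC 7, 8 and 9 it was 9.49, 4.22 and 8.59, so PBC 8 lay within the control range. The Folr2 to Adgre1 ratio in PSC livers, at 4.91 to 6.10, also lay wholly above the controls, at 2.61 to 4.67. The Clec4f to Adgre1 ratio ran from 14.4 to 32.2 in the controls, from 9.65 to 40.8 in PBC and from 24.9 to 32.0 in PSC livers, overlapping throughout. The share of all models whose ratios to Adgre1 did not overlap between groups was not counted.

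**Figure D3:**
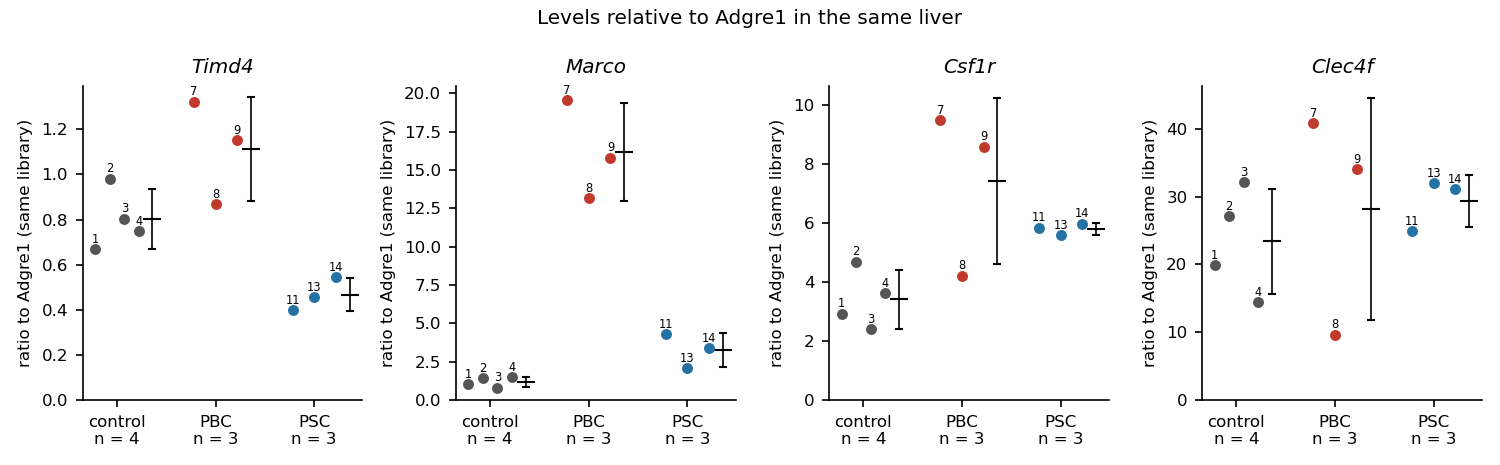
Ratio of Timd4, Marco, Csf1r and Clec4f to Adgre1 in the same liver, with mouse numbers and mean ± SD at the right of each group (n = 4, 3 and 3). The Timd4 ratio is at most 0.545 in the PSC livers and at least 0.67 elsewhere, while the Marco ratio is at least 13.1 in the PBC livers.

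The members did not vary as 1 block between mice. Over the 28 pairs of members, Pearson's r of the deviations from the group means ran from 0.09 to 0.98, with a median of 0.71, over 10 libraries that share their size factors. Timd4 and Adgre1 were the closest pair, at 0.98, and Marco and Csf1r followed at 0.95. PBC 8 weighs on these values: it stood at 2.50, 3.53, 2.68 and 1.66 times the mean of PBC 7 and 9 for Timd4, Adgre1, Marco and Csf1r. Correlations without PBC 8 are not given here. Clec4f deviated with Folr2 (0.83) but hardly with Csf1r (0.09) or Marco (0.13).

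All other genes with a mean of at least 50 were ranked by the same measure among 12119 candidates. The nearest to Clec4f were 4930480K23Rik, C1qa and C1qb (r = 0.96 for each), the last 2 encoding chains of the complement protein C1q, which Kupffer cells make. C1qc stood first for Vsig4 (0.94), and Fcna, for a ficolin of Kupffer cells, stood first for Folr2 (0.95). Treml4, a receptor gene of splenic and other macrophages, stood first for Timd4 (0.98), Tmem229b for Cd5l (0.98), Rap2b for Marco (0.98) and Mfap3 for Csf1r (0.98). By the log2 levels over the 10 libraries, in which group differences take part, the nearest were Dnajb13 for Clec4f (0.96), Il18bp for Vsig4 (0.98), Gbp5 for Timd4 (0.97), Tmem229b for Cd5l (0.98), Plekho2 for Marco (0.98), Cfp for Folr2 (0.99), Cybb for Adgre1 (0.96) and Fam111a for Csf1r (0.99).

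Some genes for factors that set Kupffer cell identity were called higher, and the others were not called. Of 11 tested factor genes, 4 rose in PBC livers and 0 fell, with a median log2 fold change of 0.35. Spi1, for the myeloid master factor PU.1, rose by 1.92 (SE 0.20, limma adjusted p = 9.96e-05), and Spic, for a factor of heme-handling macrophages, by 2.15 (SE 0.28, adjusted p = 0.0005). Spic was at 189 to 380.4 in the controls and at 1029.5, 1107 and 1102 in PBC 7, 8 and 9, a tight group in which mouse 8 did not stand apart. Irf8 rose by 1.57 (SE 0.25, limma adjusted p = 0.00179).

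Nr1h3, which encodes the oxysterol receptor LXRα, was at -0.15 (SE 0.24, limma adjusted p = 0.724) in PBC and 0.06 in PSC livers, and hepatocytes express it too. Id3 was at 0.31, Id1 at 0.10 and Zeb2 at 0.22 in PBC livers, none called. In PSC livers 4 factor genes were called higher and 0 lower, among them Spi1 at 1.44, Spic at 1.01 and Irf8 at 0.90, and 2 were called without control 1 or 2 or PSC 11 or 14 and with equal totals. Spic alone was also lost there without control 3 or PSC 13. Of 7 LXR target genes 0 were called in PBC livers (2 without control 4 or with array quality weights), and Abca1, for a cholesterol exporter, fell by 1.45 in PSC livers (limma adjusted p = 0.0206). Abca1 lost its call without control 2 or any 1 PSC liver (adjusted p from 0.0528 to 0.0991).

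Of 16 other Kupffer cell genes, 9 rose in PBC and 6 in PSC livers, and 0 fell in either, with medians of 0.97 and 0.28. Vcam1, for an adhesion molecule also made by endothelium, rose by 1.98 in PBC and 1.73 in PSC livers (limma adjusted p = 7.78e-05 and 0.000107). The C1q genes rose in both models, by 1.63 to 1.68 in PBC and 1.11 to 1.45 in PSC livers, and C6, for a terminal complement component, by 1.71 and 2.03. C1qa was at 7969.9 to 14418 in the controls, 33002 to 39982 in PBC and 25741 to 28655 in PSC livers, with no overlap between the controls and either model. Cd163, for the haptoglobin-hemoglobin receptor, was at -0.87 (SE 0.37, limma adjusted p = 0.131) in PSC livers, and Mertk, for a receptor in the uptake of dying cells, at -0.61 (SE 0.25, adjusted p = 0.116), neither called. Estimates below 0 in both models, none called, were those of Hpgd and Slc40a1, among others. Hpgd was at -0.68 in PBC and -0.68 in PSC livers (limma adjusted p = 0.0736 and 0.0584). Slc40a1 was at -0.61 and -0.75 (adjusted p = 0.189 and 0.0908). Among the 16, 3 fell in PSC livers without PBC 8 or with the compared groups alone, and 5 with array quality weights, and 1 without control 2 or with DESeq2. In PBC livers 2 fell without PBC 8 or with array quality weights, and 1 without control 2 or with DESeq2.

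Of 14 niche ligands and receptors, Tgfb1 and Acvrl1 rose in PBC livers, by 1.45 (SE 0.21, limma adjusted p = 0.00102) and 1.36 (SE 0.21, adjusted p = 0.00152), and both rose in PSC livers, by 1.04 and 0.99. The call of Acvrl1 in PSC livers was lost without PSC 14 (adjusted p = 0.0539). Csf1 and Il34, the 2 ligands of the Csf1r product, were at 0.98 (95% interval 0.18 to 1.79, limma adjusted p = 0.109) and 0.48 (-0.29 to 1.24, adjusted p = 0.426) in PBC livers. In PSC livers 3 genes fell: Bmp10, for a ligand of the BMP family, with a log2 fold change of -3.57, and the receptor genes Tgfbr1 and Bmpr2 with -1.89 and -1.35 (limma adjusted p from 0.0118 to 0.039). Bmp10 was low throughout, at 28.1 to 70.8 in the controls and 5.63, 12.9 and 0 in PSC 11, 13 and 14. This count became 1 without control 1, 2 or 4 or PSC 11 or 13 and with equal totals, and 0 without PSC 14, where Bmp10 was at -2.48 (adjusted p = 0.0525). Bmp10 was at -4.38 without PSC 13.

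**Figure D4:**
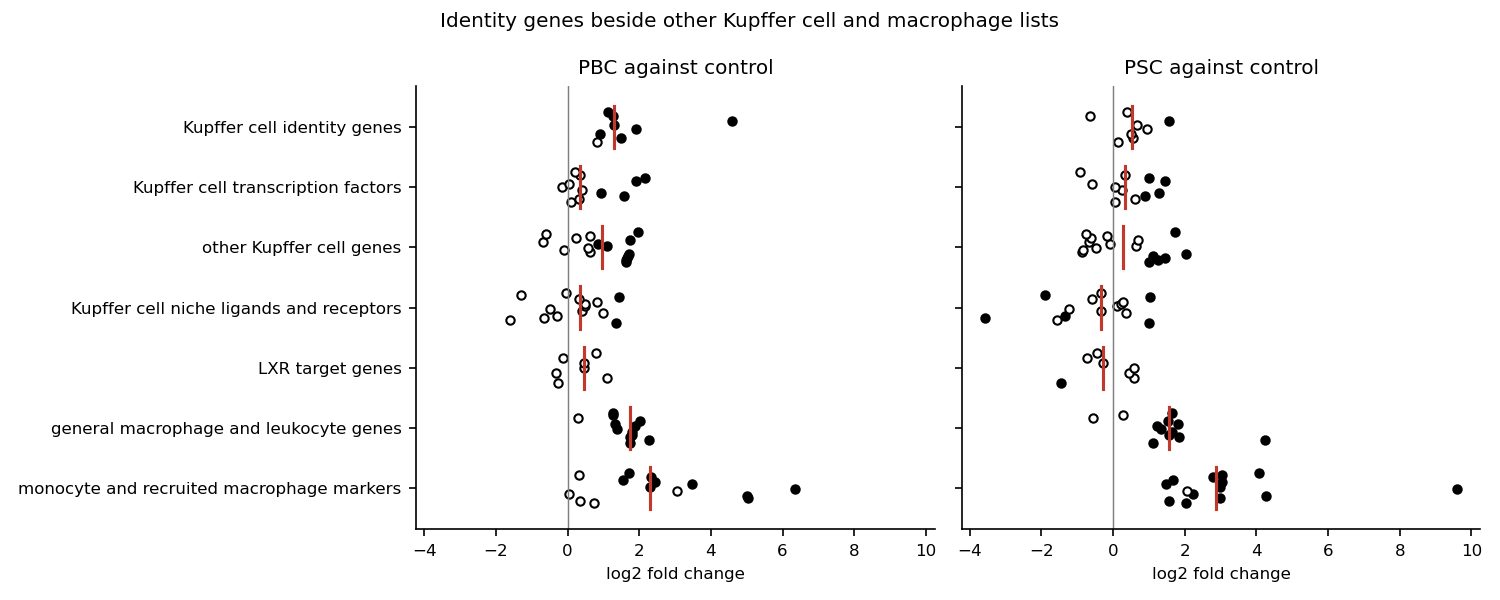
Log2 fold changes of the identity genes beside 6 lists of Kupffer cell and macrophage genes, in PBC and PSC against control livers. Filled points have a limma adjusted p of at most 0.05, and red bars are medians. The identity genes have a median of 1.29 in PBC and 0.53 in PSC livers, while the monocyte and recruited macrophage markers stand at 2.31 and 2.88.

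Markers of other myeloid cells were counted in the same fit. Of 12 general macrophage and leukocyte genes, 11 rose in PBC and 10 in PSC livers, with medians of 1.74 and 1.55. Their summed level was 22331 to 41212 in the controls, 87860.2 to 116237 in PBC and 85963 to 113952 in PSC livers. Mpeg1 and Fcer1g rose in both models, Mpeg1 by 2.03 and 1.53 and Fcer1g by 1.81 and 1.65. Cd14, a co-receptor for endotoxin, rose by 2.29 in PBC and 4.23 in PSC livers (limma adjusted p = 0.0011 and 6.82e-06). Mrc1, for the mannose receptor, was not called in either, at 0.28 and -0.55.

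Of 14 monocyte and recruited macrophage markers, 9 rose in PBC and 13 in PSC livers, and their summed level was 15343 to 17825 in the controls, 25641 to 31395 in PBC and 76106 to 123301 in PSC livers. Most of the PSC sums came from Spp1, which is also in the list of cholangiocyte markers. Spp1 stood at 7014 to 12348 in the controls, 8905 to 12501 in PBC and 50963 to 91721 in PSC livers. Between the models 5 of the 14 markers were lower in PBC and 1, Ly6c2, was higher. Trem2 and Spp1 were lower by 2.35 and 2.72 (limma adjusted p = 0.00232 and 0.000299), while Marco and Timd4 were higher. Without PBC 7 or any 1 PSC liver the 5 became 2, and Ly6c2 lost its call without PBC 8, PBC 9 or any 1 PSC liver, with no filter and with equal totals. F13a1, Gpnmb and Clec4e were at 0 in some libraries. Neutrophil markers summed to 373 to 6491 in the controls, 39106 to 116420.0 in PBC and 8961 to 16196 in PSC livers, with 10 of 10 and 7 of 10 called higher. The 7 became 3 or 4 without any 1 PSC liver and 4 with edgeR. The part of monocytes, neutrophils and other cells in the levels of the identity genes was not tested.

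PBC mouse 8, the highest for Vsig4, Marco, Timd4, Adgre1, Cd5l and Csf1r, had the lowest neutrophil sum of the 3 PBC livers, a monocyte sum between those of the others, and the highest sums of general macrophage genes (116237), sinusoidal endothelial markers (21765) and stellate cell and fibroblast markers (28213). It was the highest PBC liver for 9 and the lowest for 2 of the 16 other Kupffer cell genes. For the 14 monocyte and recruited macrophage markers the counts were also 9 and 2, although their sum was not the highest. It was the highest for 7 and the lowest for 2 of the 12 general macrophage and leukocyte genes, and the highest for 9 of the 10 sinusoidal endothelial markers. The part of these cells in its levels was not tested.

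Among ligands, partners and relatives of the members, 7 of 22 rose in PBC livers and 1 fell. Msr1, the class A scavenger receptor most like Marco, was at 0.57 (SE 0.31, limma adjusted p = 0.267), and the relatives Scara3 and Colec12 at -0.09 and 0.14, none of these 3 called. Scara5, a further relative, was called higher in PBC livers, at 3.41 (SE 0.98, adjusted p = 0.0438), and in PSC livers, at 3.52 (adjusted p = 0.0304). These calls were lost in 12 and 7 of 19 alternatives. Scara5 was low, at 0 to 5.11 normalised reads in the controls and 7.46, 6.37 and 74.1 in PBC 7, 8 and 9. Itgam and Itgax, whose products join in the other receptors for C3 fragments, rose by 2.06 and 2.30. Without PBC 7 or PBC 9, or with the compared groups alone, the count that rose was 4. In PSC livers 4 rose and 0 fell, with 1 that rose without PSC 11, 2 without PSC 14 and 10 with array quality weights.

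Of the 16 nearest tested genes on either side of the members, 2 rose and 2 fell in PBC livers, and 4 rose and 0 fell in PSC livers. F630028O10Rik, next to Vsig4, was called higher in both models, at 1.16 and 1.25, but lost its PBC call in 15 of 20 alternatives and its PSC call without control 1 or 4 or PSC 11 or 14. Pdgfrb, next to Csf1r, rose by 1.23 in PSC livers, and Nudt12, next to Adgre1, was called lower in PBC livers, at -1.22, a call lost in 13 of 20 alternatives. Cd207, the langerin gene of dendritic cells, lies 15090.0 bases from Clec4f on chromosome 6, on the side of its transcript start, and encodes a related lectin. It was at 902, 501, 938 and 457 in the controls, 172, 209 and 63.5 in PBC 7, 8 and 9, and 795, 1194 and 1027 in PSC livers. While Clec4f rose, Cd207 fell by 2.32 (SE 0.39, limma adjusted p = 0.00249) in PBC livers, and it was lower by 2.90 (SE 0.42, adjusted p = 0.00318) in PBC than in PSC livers.

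Fcrls, an Fc receptor-like scavenger gene known from microglia, lies 94286 bases before Cd5l on chromosome 3. It was at 12.9, 5.13, 0 and 2.78 in the controls and 12.4, 9.56 and 10.6 in PBC livers, but at 101, 76.0 and 128 in PSC livers, where it rose by 4.57 (SE 0.76, limma adjusted p = 0.00197). Its log2 fold change was 3.87 without control 3, the library at 0, and 3.51 with a pseudocount of 5. Vav1, a signalling gene of blood cells 29450.0 bases before Adgre1 on chromosome 17, rose by 1.92 (SE 0.27, limma adjusted p = 0.000777) in PBC and by 0.99 (adjusted p = 0.0273) in PSC livers, where Adgre1 itself was not called. The call of Vav1 in PSC livers was lost without control 1 or 2 or PSC 11 or 14 and with equal totals (adjusted p from 0.0583 to 0.128). Havcr1, of the same TIM family as Timd4 and 31222 bases before it, stayed at 0 to 19.7 normalised reads in all livers. Folr1, 1132 bases from Folr2 on chromosome 7, stood at 6.94 to 42.0.

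**Figure D5:**
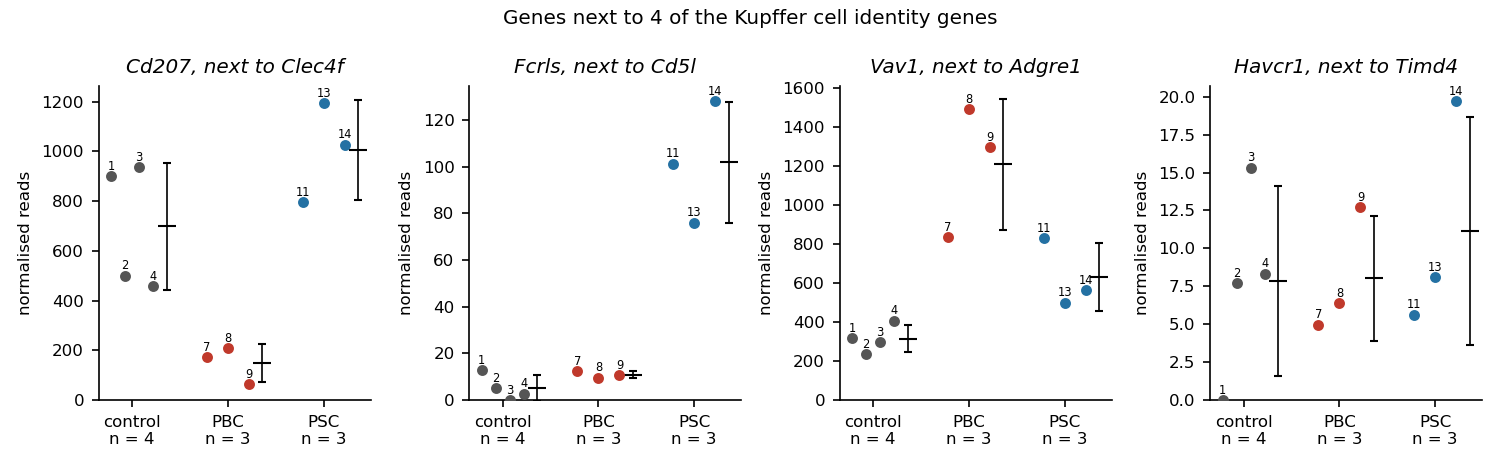
Normalised reads of Cd207, Fcrls, Vav1 and Havcr1, the tested genes next to Clec4f, Cd5l, Adgre1 and Timd4, in each liver, with mouse numbers and mean ± SD at the right of each group (n = 4, 3 and 3). Cd207 is at most 209 in the PBC livers and at least 457 elsewhere, and Fcrls is at least 76.0 in the PSC livers.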

How the data were processed

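The deposited table gives, per its header, a signal for each FASTDB gene model on mm10 after DESeq2 normalisation by the authors. STAR 2.4.0 is named in the submitters' processing notes, which do not name a counting tool; its use of strand is not known here. Values were whole multiples of 1 step per library (0.938 to 2.55 per read, tolerance 0.1, at least 99.987% of values), so whole reads were recovered. Limma 3.58.1 (R 4.3.3) with an intensity trend was run on log2(value + 1), all 10 libraries in 1 fit, for models with at least 10 in at least 3 libraries. Fold changes are on this scale, which understates the change of low genes. Adjusted p is over all 18390 tested models, at 0.05. Labels name separate mice, so p-values of levels rest on the spread between mice. Limma pooled that spread over the groups and moderated it towards the trend over all models. Ratios to Adgre1 were fitted likewise, but there limma took the spread almost wholly from the trend over all models. Exact permutation tests of the ratios were added after seeing the data. Fits of levels were tested on simulated data for PBC against control libraries. There 25% of 100 2-fold and 91% of 100 4-fold changes were found, with 11 false calls among 17077 genes. These 11 are a far larger share of the calls made than of all genes. No other gene was changed, and PSC libraries were given no change. In the data 1398 models were called higher and 430 lower in this comparison, so the simulated shares may not carry over. Alternatives were pseudocounts of 0.5 and 5, no filter, a filter at 50, TMM scaling, equal totals, edgeR 4.0.16, DESeq2 1.42.0, the compared groups alone, quality weights and leaving out each library. The members and lists were chosen with earlier results of these data known. Named genes are the members, up to 4 genes of each list by adjusted p, called genes against a list's main direction, neighbours, and the nearest genes by correlation. Other list genes (Nr1h3, Id3, Id1, Zeb2, C1qa, Cd163, Mertk, Csf1, Il34, Msr1, Scara3, Scara5, Colec12 and Mrc1 among them) were named after their values were seen. Promoters were taken from RefSeq for 6 of the 8 members. Adgre1 had no entry there, and Csf1r, on chromosome 18, was left out. Maf and Tf matched no single model and were not analysed here. Lists of lymphocyte, dendritic, endothelial, hepatocyte, cholangiocyte, stellate, peritoneal and splenic macrophage markers and proliferation genes were counted too. Of the factor genes counted, 1 result is not reported here.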

Additional observations from a re-analysis of the deposited data

How the results depend on the processing

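In PBC against control livers 7 members were called higher, and 5 to 7 with 1 library left out. In PSC against control livers the count of 1 became 0 with no filter, TMM scaling, equal totals or edgeR, 2 with DESeq2 and 5 with quality weights, which also called 1 member lower, and 0 to 2 with 1 library left out. Between the models it was 2, and 1 to 2 with 1 library left out. Per Adgre1, with Csf1r as denominator, 1 member was lower in PSC than control livers and 1 was higher in PBC than PSC livers, against 0 and 0. With 1 library left out, the members higher per Adgre1 were 0 to 1 in PSC against control and 0 to 1 in PBC against PSC livers. Per Csf1r, the estimates of Clec4f, Vsig4, Timd4, Cd5l and Folr2 in PBC against control livers were below 0, and none was called. No member called with the settings of the report changed sign under any alternative run. The causes of these changes were not tested. Over all models, the number higher in PBC than control livers was 1398 and ranged from 673 without PBC 9 to 2425 with quality weights. The number lower was 430 and ranged from 63 to 1803 under the same settings. In PSC livers 1518 were higher, from 680.0 without PSC 14 to 3899 with quality weights, and 1192 lower, from 245 to 3404. Between the models 204 were higher and 208 lower in PBC, from 61 and 43 without PSC 14 to 658 and 701 with quality weights. No paired analysis was possible because the groups share no replicate numbers. Depth limits genes at a few reads, such as Bmp10, Fcrls, F13a1 and Havcr1, while each member had at least 197 reads in every library.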

Other observations

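Marker lists of other liver cells, counted in the same limma fit, gave these counts, each followed by its range over the alternatives. Of 9 lymphocyte markers 4 (2 to 5) rose in PBC livers and 2 (0 to 4) fell in PSC livers. Of 7 cholangiocyte markers 3 (1 to 3) rose in PBC and 6 (5 to 7) in PSC livers, with medians of 0.49 and 2.11. Of 8 proliferation genes 3 (1 to 3) rose in PBC and 8 (5 to 8) in PSC livers. Of 10 sinusoidal endothelial markers 1 (0 to 1) rose in PBC livers, and 1 (0 to 1) rose and 1 (0 to 4) fell in PSC livers. Of 7 hepatocyte markers 1 (0 to 1) rose in PBC livers, and 0 (0 to 3) fell in PSC livers. Of 8 stellate cell and fibroblast markers 2 (2 to 4) rose in PBC and 4 (4 to 4) in PSC livers. Of 8 dendritic cell markers 4 (1 to 4) rose and 1 (0 to 2) fell in PBC livers, and 2 (1 to 4) rose in PSC livers. Of 7 peritoneal and splenic macrophage markers 2 (2 to 3) rose in PBC and 2 (0 to 5) in PSC livers.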
